A study of Homo sapiens with 4 samples.

Results

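The ERBB receptors and the ligands of the EGF family were followed through 4 arrays labelled as MCF-10A cells, and all their probes were taken, that is, every probe of the array that is annotated with a RefSeq transcript of 1 of 10 genes. The receptors are EGFR, ERBB2, ERBB3 and ERBB4, and the ligands are AREG, EREG, HBEGF, TGFA, BTC and NRG1. These 10 genes have 18 probes, of 28168 probes and 20501 genes with a symbol and 50590 probes in all.

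MCF-10A is a human line of non-tumorigenic mammary epithelial cells, which is grown in medium containing EGF. The labels state that the medium here held hEGF together with bovine pituitary extract, hydrocortisone, insulin and cholera toxin, and all 4 cultures shared it. The cells received 10 µM of stapled-peptide or of non-specific stapled-peptide, and RNA was taken after 24 h or 48 h. Stapled peptides are short peptides held in a helix by a hydrocarbon bridge, and those of the study were modelled on the stretch of BIG3 that binds PHB2. There was 1 array per peptide and time, the labels mark the non-specific stapled-peptide as the control, and they do not say which peptide of the study either name stands for. No untreated culture was analysed here. Differences between the peptides are log2 values, positive where the non-specific stapled-peptide array had the higher signal and negative where the stapled-peptide array had.

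ERBB receptors are receptor tyrosine kinases that pair when a ligand binds and then recruit adaptors that feed the RAS-ERK and PI3K pathways. AREG, EREG, HBEGF, TGFA and BTC are made as membrane-bound precursors that are shed from the cell surface and bind EGFR, ERBB4 or both, whereas NRG1, a neuregulin, binds ERBB3 and ERBB4. ERBB2 binds none of these ligands and acts as the partner of the other receptors, and ERBB3 has almost no kinase activity of its own. In the mammary gland AREG is the EGFR ligand known for its part in duct growth, and cultured mammary epithelial cells use it as an autocrine growth factor.

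The array of non-specific stapled-peptide at 48 h stood apart from the other 3 arrays. Across probes well above background on at least 1 array of a pair, Pearson's r was 0.976 to 0.978 among the other 3 arrays and 0.799 to 0.807 with this array, and the SD of the log2 differences was 0.58 to 0.60 and 1.80 to 1.83. All 10 markers of basal mammary epithelium were well above background on every array, but their summed normalized signal was 110000 on each of the 3 arrays and 659 on the non-specific 48 h array, and 9 of the 10 were lower there by more than 2-fold. For the keratin KRT5 the log2 signal was 14.65, 14.54 and 14.59 on the 3 arrays and 5.02 on that array. The summed signal of 8 luminal markers, largely KRT18, was 30600 to 32300 and 6560, with PGR and ELF5 not well above background on any array. Between the peptides at 48 h, 2 luminal markers were lower by more than 2-fold, 1 was higher and 3 were neither, with a median log2 difference of −0.23. The summed signal of 8 fibroblast markers, largely DCN, was 29600 to 32100 and 197, with COL1A2 and COL3A1 not well above background on any array. Of 5 fibroblast markers with a difference between the peptides at 48 h, 3 were lower by more than 2-fold, 0 higher and 2 neither. Those 2 were COL1A1 at 0.13 and LUM, well above background on the non-specific 48 h array alone, at 0.19 or more. That of 11 markers listed for an embryonic kidney line or neural cells was 242 to 271 and 72700, with 2 or 3 of them well above background on the 3 arrays and 8 on the non-specific 48 h array, where PAX2, L1CAM and SOX11 were not. These marker signals moved together with every 48 h result below, and their part in those results was not tested. The labels give MCF-10A cells for this array too, and whether its RNA came from the labelled cells was not tested and cannot be settled from these values. Every value at 48 h with non-specific stapled-peptide is therefore one of the array so labelled. In RNA from a whole culture, fewer cells of a type and less RNA per cell cannot be told apart. For the members, the values of the 3 concordant arrays are given beside that of the non-specific 48 h array.

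The percentage of spots well above background, a mark set by the scanner software, was 62.5, 64.6, 63.2 and 65.7 for stapled-peptide at 24 h, non-specific stapled-peptide at 24 h, stapled-peptide at 48 h and non-specific stapled-peptide at 48 h, and values below follow this order of arrays. No test between groups could be run on single arrays, whose number limits the precision of all values. The signal error given by the scanner software was 10.0% to 21.7% of the signal, with a median of 11.6%, over 53 values well above background. These values are 1 per member probe and array, averaged over spots where a probe has several. A probe that was dim on 1 array of a pair was given there the higher of its own signal and the lowest signal that array marked as well above background. Such a difference is a bound, written as "at least" or, for negative values, "or lower". It holds by this convention and is not a guaranteed limit for each probe. On the non-specific 48 h array the lowest log2 signal well above background was 3.57, yet an NRG1 probe at 4.11 was not. Levels are not compared between probes, since each probe has its own response.

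On the stapled-peptide arrays and on the non-specific array at 24 h, 8 of the 10 genes and 14 of the 18 probes were well above background. ERBB4 and HBEGF were not. On the non-specific 48 h array 7 genes and 11 probes were, and there EREG, BTC and NRG1 were the genes that were not. The plot of normalized signals shows level lines over the first 3 arrays and a step at the last for most genes.

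AREG, which encodes amphiregulin, had the largest measured difference of the 10 genes. Its probe A_23_P259071 had log2 signals of 13.94, 14.16, 14.00 and 5.40. Before normalization the signals were 17100, 19100, 15300 and 43.3, with software errors of 1710, 1910, 1530 and 5.16. The first 3 arrays lay within 0.21 of each other, and the non-specific 48 h array was 389-fold below stapled-peptide at 48 h, a log2 difference of −8.60. The probe A_33_P3419190 of the same transcript had 12.08, 12.19, 12.13 and 5.12, which gives −7.01 or 129-fold. Both probes thus put the non-specific 48 h array more than 100-fold lower, but with the normexp background correction, which adds an offset of 50 to the signals, the second had −5.56, which is under 100-fold, and the first −7.31. The signal left there was still marked as well above background at both probes. AREG was the only member past 100-fold, the threshold the study used, and it was lower, as were 0.707% of all genes with a difference at 48 h.

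EREG, which encodes epiregulin, a ligand of EGFR and ERBB4, is the neighbour of AREG on chromosome 4. Its log2 signals were 7.77, 7.87, 7.74 and 3.35, the last not well above background. The difference at 48 h was a bound of −4.17, so that EREG was at least 18.1-fold lower with non-specific stapled-peptide, and the other 3 arrays lay within 0.13. BTC, which encodes betacellulin, had 5.83, 5.86, 5.98 and 3.87, the last again not well above background. It was at least 4.29-fold lower (log2 −2.10), and its other 3 values lay within 0.14.

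The promoters of AREG and EREG are shown because these genes are adjacent and were both lower at 48 h, and that of EGFR because it is the receptor of both. They are the 250 bases before the start of each gene, from RefSeq on build GRCh38.p14, at chr4:74444886-74445135 for AREG, chr4:74364895-74365144 for EREG and chr7:55018767-55019016 for EGFR, all on the plus strand. Capitals mark matches to the cAMP response element TGACGTCA, the TATA box TATAAA and the GC box GGGCGG or its reverse complement.
AREG: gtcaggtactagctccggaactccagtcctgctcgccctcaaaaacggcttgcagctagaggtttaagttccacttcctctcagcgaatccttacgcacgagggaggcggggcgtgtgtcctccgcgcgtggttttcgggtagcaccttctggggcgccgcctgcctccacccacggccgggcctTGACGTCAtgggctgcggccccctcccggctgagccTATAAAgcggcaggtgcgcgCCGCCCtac
EREG: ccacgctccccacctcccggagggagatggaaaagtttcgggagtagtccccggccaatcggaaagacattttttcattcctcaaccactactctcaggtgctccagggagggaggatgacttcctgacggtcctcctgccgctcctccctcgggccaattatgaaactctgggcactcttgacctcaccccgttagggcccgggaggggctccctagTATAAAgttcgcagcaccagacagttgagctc
EGFR: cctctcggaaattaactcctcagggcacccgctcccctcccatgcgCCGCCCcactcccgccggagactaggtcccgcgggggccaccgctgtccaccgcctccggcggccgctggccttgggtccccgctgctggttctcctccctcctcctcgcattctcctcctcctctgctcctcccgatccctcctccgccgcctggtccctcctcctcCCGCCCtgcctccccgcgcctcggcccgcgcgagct
AREG had the cAMP response element 65 bases, a TATA box 29 bases and a GC box 9 bases before its start. EREG had a TATA box 32 bases before its start and none of the other motifs, and EGFR had GC boxes 204 and 36 bases before its start and no TATA box. Of 35116 RefSeq promoter windows of the same length, with every motif searched on both strands, 1.65% held TGACGTCA, 10.7% TATAAA and 42.6% GGGCGG. The AP-1 motif TGANTCA, held by 6.57%, was in none of these 3 windows and in that of ERBB2, 222 bases before its start. The motifs do not overlap each other in these windows. GC content was 65.2% for AREG, 58.0% for EREG and 73.6% for EGFR, against a median of 58.0% over the windows. Of the other ligand genes, HBEGF had 5 GC boxes, TGFA 3 and BTC none of the motifs, while ERBB4 had 1 GC box. A match is a description of the letters and not of a site in use, and no match says only that these letters are not in this window.

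HBEGF encodes a heparin-binding ligand of EGFR and ERBB4. Among the member ligands it was the only one with a higher signal on the non-specific 48 h array. Its log2 signals were 1.56, 1.57, 1.57 and 5.32, with only the last well above background, so that HBEGF was at least 2.70-fold higher (log2 1.43) than with stapled-peptide at 48 h. TGFA, which encodes transforming growth factor alpha, had 8.52, 8.29, 8.23 and 7.41. Its difference of −0.82 (1.76-fold) was below 2-fold, and the 3 concordant arrays spanned 0.30. The second probe of TGFA was not well above background on any array.

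NRG1 had 5.58, 6.13, 5.46 and 4.11 at the probe A_33_P3284345 and 4.56, 4.99, 5.32 and 1.91 at A_23_P315815. The last value was not well above background at either probe, and NRG1 was at least 2.54-fold lower (log2 −1.35) by the first and at least 3.37-fold lower (log2 −1.75) by the second at 48 h. Among the 3 concordant arrays these probes spanned 0.68 and 0.76, the widest of the 14 member probes measured on all 3, and they did not order these arrays alike. The first was highest on the non-specific 24 h array, the second on the stapled-peptide 48 h array.

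EGFR was lower on the non-specific 48 h array at each of its 3 probes. The probe A_23_P215790, annotated with the transcript of the full-length receptor, had log2 signals of 8.32, 8.30, 8.39 and 5.57. Its signals before normalization were 330, 318, 297 and 50.3, with software errors of 33.2, 32.1, 29.9 and 5.86. The first 3 arrays were within 0.09, whereas the difference at 48 h was −2.82, or 7.05-fold. The other probes are annotated with transcripts of short EGFR isoforms that lack the kinase domain. A_33_P3351944 had 6.50, 6.69, 6.68 and 4.19, a difference of −2.49 (5.62-fold), and A_33_P3351955 had 5.75, 5.40, 5.90 and 4.27, a difference of −1.64 (3.11-fold). All 12 EGFR values were well above background. Before normalization these last 2 probes had signals of only 16.5 and 17.5 on the non-specific 48 h array. With the normexp background correction the differences of the 3 probes were −1.78, −1.01 and −0.53, so that the last was under 2-fold.

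ERBB2 is spotted 10 times on each array, so that its values carry an error between spots of 1 array, which is not the spread between cultures. Before normalization the log2 signal was 10.52 ± 0.048, 10.37 ± 0.043, 10.38 ± 0.058 and 8.82 ± 0.067 (SD over 10 spots). The spots of the non-specific 48 h array ran from 8.69 to 8.89, and the lowest spot of the other arrays was at 10.31, so that they did not overlap. After normalization the signals were 10.45, 10.33, 10.53 and 8.70, a difference of −1.83 (3.55-fold) at 48 h and of −0.12 at 24 h.

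The 3 probes of ERBB3 disagreed at 48 h. A_33_P3211569, annotated with the transcript of a short secreted isoform, had 5.43, 5.62, 5.76 and 7.07, which is 2.49-fold higher (log2 1.32) with non-specific stapled-peptide. A_23_P349416, on the full-length transcript, had 5.26, 5.29, 5.19 and 5.74, a difference of 0.56 and under 2-fold. A_33_P3280471, on the same transcript, had 4.37, 4.47, 4.46 and 3.92, the last not well above background, with a bound of −0.54 in the other direction. The count of ERBB3 as higher thus rests on the first probe, which has the highest mean signal. ERBB4 had 1.71, 1.66, 1.68 and 7.35 at A_32_P183765, with only the last well above background. It was at least 11.0-fold higher (log2 3.46) on the non-specific 48 h array, and its second probe was not well above background on any array.

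Counted over genes, each read at its brightest probe by the mean of the 4 arrays, 6 of the 10 members (EGFR, ERBB2, AREG, EREG, BTC and NRG1) were lower by more than 2-fold at 48 h with non-specific stapled-peptide, against 19.8% of 17112 genes with a difference. ERBB3, ERBB4 and HBEGF, 3 of the 10, were higher, against 21.2% of genes, and TGFA was neither. ERBB4 and HBEGF were well above background on the non-specific 48 h array alone, and EREG, BTC and NRG1 on every array but that one. The direction of their bounds was thereby fixed. With a probe required to be well above background on both arrays, 1 member was higher (ERBB3) and 3 were lower (EGFR, ERBB2 and AREG). The share over all genes was not taken in that setting. When the probe of each gene was instead chosen over the 3 concordant arrays, a setting added after the values were seen, 2 were higher and 6 lower, ERBB4 having no difference at its other probe. With the normexp background correction 4 members were lower (EGFR at −1.78, ERBB2 at −1.70, AREG at −7.31 and EREG at −1.78 or lower) and ERBB4 alone was higher, at 1.75 or more. The median difference was −1.59 over the 10 genes, −0.26 over the 4 receptors and −1.72 over the 6 ligands, and 0.03 over all genes. The members' bounds, 5 of the 10 values, enter these medians as they stand.

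At 24 h 0 of the 8 members measured passed 2-fold in either direction, against 0.838% of 16228 genes that were higher and 1.04% that were lower. ERBB4 and HBEGF were not well above background on either array. The differences at the genes' probes were −0.02 for EGFR, −0.12 for ERBB2, 0.19 for ERBB3, 0.21 for AREG, 0.10 for EREG, −0.24 for TGFA, 0.02 for BTC and 0.55 for NRG1, with a median of 0.06 against 0.01 over all genes. AREG, 389-fold lower at 48 h, thus differed by 0.21 on the log2 scale at 24 h.

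With stapled-peptide, 48 h against 24 h gave 0 of 8 members past 2-fold, against 0.923% of 16138 genes higher and 1.13% lower. The differences were −0.30 to 0.33 with a median of 0.06 against 0.00 over all genes, and ERBB3 had the highest and TGFA the lowest. Without normalization between arrays 9 of the 14 probe differences had the opposite sign, so that no direction is read from them. With non-specific stapled-peptide, the same 3 members were higher and the same 6 lower at 48 h than at 24 h, against 21.3% and 20.1% of 17297 genes. The differences were −2.73 for EGFR, −1.63 for ERBB2, 1.46 for ERBB3, at least 3.57 for ERBB4, −8.75 for AREG, −4.31 or lower for EREG, at least 1.54 for HBEGF, −0.88 for TGFA, −1.98 or lower for BTC and −2.02 or lower for NRG1, with a median of −1.80. This comparison and that between the peptides at 48 h share the non-specific 48 h array and are therefore no independent evidence of each other. Over the 14 member probes well above background on the other 3 arrays, the range among those arrays had a median of 0.19, against 0.20 over 27925 probes of which 95% had a range under 0.78.

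The rest of the pathway was read from lists of 47 genes. At 48 h 46 of them had a difference, of which 2 were higher by more than 2-fold on the non-specific array, 13 were lower and 31 were neither, with a median of −0.46. Over all genes 21.2% were higher and 19.8% lower in this comparison, and the counts of the separate lists below stand against the same shares. With non-specific stapled-peptide at 48 h against 24 h the count was 2 higher, 12 lower and 32 neither, against 21.3% and 20.1% of all genes. Marker signals on the non-specific 48 h array, given above, apply to these values as well. The plot of pathway genes shows most points between the 2-fold lines and a tail of lower values.

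Among the other EGF family ligands, EPGN, which encodes epigen, had log2 signals of 7.11, 7.25, 7.23 and 1.83, the last not well above background, and was at least 12.7-fold lower (log2 −3.66). The neuregulin gene NRG4 had 3.96, 3.66, 4.05 and 5.48, with only the last well above background, and was at least 2.69-fold higher (log2 1.43). NRG2 and NRG3 were within 2-fold at 48 h, and EGF, the ligand supplied in the medium, was not well above background on either array. NRG3 had 4.74, 6.77, 4.39 and 4.30, which made it the only gene of the lists past 2-fold at 24 h, with a difference of 2.02. With the normexp background correction that difference was 0.92, and its other probe was not well above background.

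Of 5 genes that release or traffic the ligands, 3 were lower. They were ADAM10, a protease that sheds betacellulin and other ligands, at −2.74 (8.04, 8.13, 8.21 and 5.46), RHBDF1 at −2.99 and RHBDF2 at −1.55, both inactive rhomboid proteins that carry the sheddase ADAM17 to the cell surface. ADAM17 itself and its inhibitor TIMP3 were within 2-fold.

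Of 13 receptor adaptors and effectors, 4 were lower and none higher, against 19.8% and 21.2% of all genes. SHC1, an adaptor that binds phosphorylated receptors and recruits GRB2, had the largest measured difference of the 47 genes, bounds aside. Its log2 signals were 14.04, 14.00, 14.04 and 8.94, a difference of −5.10 (34.2-fold), and its other probe had −4.77. The transcription factor STAT3 had 8.43, 8.46, 8.48 and 5.91, a difference of −2.57, with −1.81 at its other probe. STAT5A was lower by at least 4.56-fold (log2 −2.19), and the adaptor GRB7 was just past the threshold at −1.02. GRB2, SOS1, SOS2, PLCG1, PTPN11, NCK1, NCK2 and STAT5B were within 2-fold, and GAB1 had a bound of −0.39 or lower.

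Of 9 negative regulators, ERRFI1, which encodes an inhibitor of the EGFR kinase, had 12.01, 12.12, 12.11 and 9.47, a difference of −2.64, and LRIG3 had −1.43. SOCS4, which promotes loss of EGFR protein, was higher at 1.21 (9.66, 9.73, 9.73 and 10.94). The other 6 were within 2-fold at the probe used for each gene, while a second probe of CBLB had a bound of −0.99 or lower. The count of 2 lower and 1 higher stands against 19.8% and 21.2% of all genes.

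Of 15 genes of the RAS-ERK and PI3K core, 3 were lower, against 19.8% of all genes, so that the count is near the share over all genes. PIK3R1, the regulatory subunit of PI3K, had 12.01, 11.98, 11.99 and 7.59, a difference of −4.40 (21.1-fold). The catalytic subunits PIK3CA and PIK3CB had −1.62 and −1.02, the latter just past the threshold. The RAS, RAF, MEK and ERK genes of the list lay between −0.74 and 0.69.

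**Figure D1:**
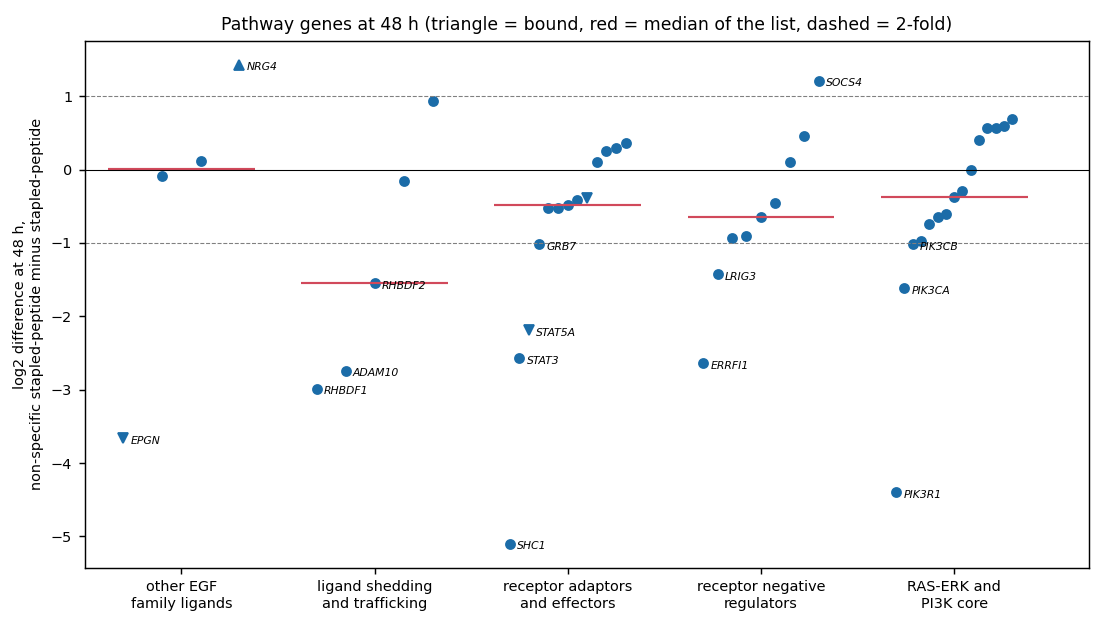
Log2 difference at 48 h (vertical axis, non-specific stapled-peptide minus stapled-peptide) of the pathway genes, 1 point per gene, in 5 lists (horizontal axis), with genes past 2-fold (dashed lines) named, triangles for bounds and a red line at the median of each list. SHC1 at −5.10 and PIK3R1 at −4.40 are the lowest, and NRG4 and SOCS4 are the points above the upper line.

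EPGN, EREG and AREG follow each other on chromosome 4, and BTC comes after 2 further annotated genes. All 4 ligand genes were lower at 48 h, and the stretch around them, with 15 genes of the array on each side, was looked at after their values were seen. The other members lie on chromosomes 7 (EGFR), 17 (ERBB2), 12 (ERBB3), 2 (ERBB4 and TGFA), 5 (HBEGF) and 8 (NRG1). Of 34 genes of the array in the stretch 25 had a difference, and of the 21 that are not these ligands 8 were lower and 4 higher, against 19.8% and 21.2% of all genes, and 9 were neither, the last including bounds for ODAPH at −0.98 and ALB at 0.44. The lower ones included 4 chemokine genes named CXCL, CXCL1 at −9.25, CXCL2 at −6.42, CXCL8 at −5.54 or lower and CXCL3 at −4.54, whereas CXCL5 had 0.19. The other lower genes were PF4, also a chemokine gene, at −2.47, AFM at −1.73 or lower, NAAA at −1.29 and MTHFD2L at −1.26. PARM1 was higher by at least 2.69, RASSF6 by 1.84, CDKL2 by at least 1.37 and LOC100506253 by at least 1.19. The lower values lay mainly on the CXCL and ligand side of the stretch, with genes within 2-fold among them, as the plot along the chromosome shows.

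**Figure D2:**
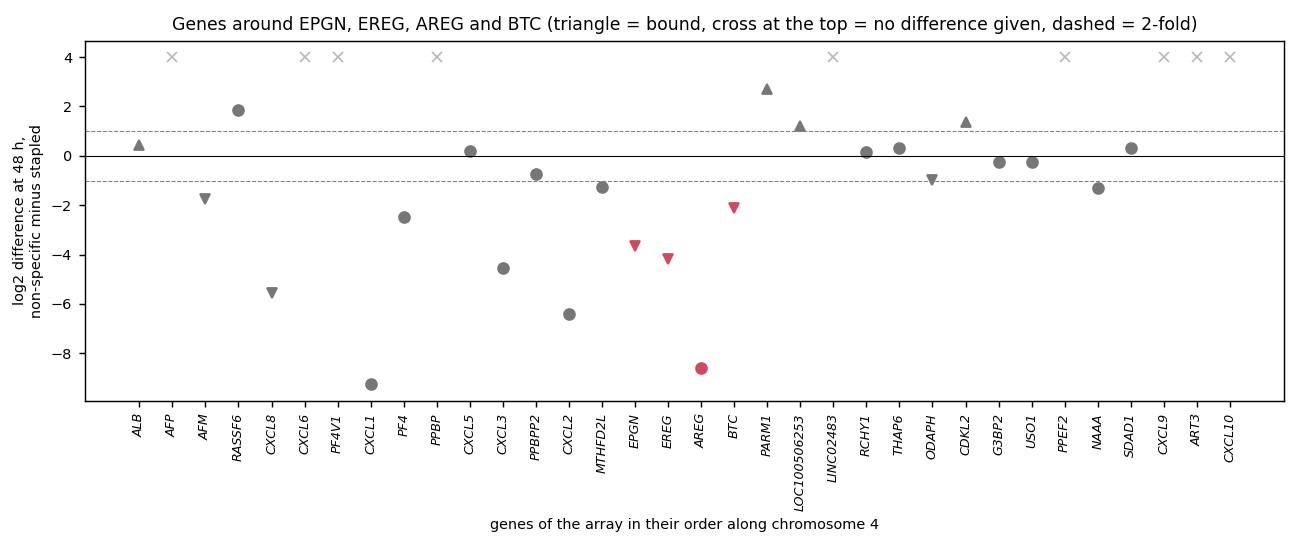
Log2 difference at 48 h (vertical axis, non-specific stapled-peptide minus stapled-peptide) of 34 genes in their order along chromosome 4 (horizontal axis, order and not distance), with the 4 ligand genes in red, triangles for bounds, dashed lines at 2-fold and crosses at the top edge for genes with no difference. CXCL1 at −9.25 and AREG at −8.60 are the lowest, and genes within 2-fold lie between them.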

How the data were processed

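RNA labelled as that of MCF-10A cells was measured on 4 single-colour Agilent arrays, 1 per peptide and time, all on 1 slide and in 1 scan. Per the file headers, the authors' spot intensities came from Agilent Feature Extraction 10.7.1.1 (the submitters' processing notes name 9.5) with the background subtracted, and they were deposited without normalization between arrays.

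Control and outlier-marked spots were removed, and the log2 signals were averaged over the remaining spots of each probe and quantile-normalized over the 4 arrays, as the methods state, with a floor at a signal of 1. No probe of the array was saturated. The mark of well above background was taken from the majority of a probe's spots, and 9 probes with no spot left on an array were dropped. A gene was taken at its probe with the highest mean signal, and called past 2-fold in 1 direction. Symbols came from RefSeq accessions (55.7% of probes). The probe grid is of an older genome build, so probe positions are not printed. Promoter windows were taken from RefSeq on GRCh38.p14 for 8 of the 10 members and EPGN.

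The genes named were all probes of the 10 members, and of the pathway lists each gene past 2-fold at 48 h, up to 4 per list and direction. NRG3 and the genes around the ligands on chromosome 4 were named after their values were seen. The members and lists were chosen with earlier results of these data known. A further gene of the lists is not reported here and is left out of their counts. With 1 array per group no test was run. The 11 alternative settings are given at the end. The calls of the 48 h comparison were tested on simulated data of 50590 probes, in which 100 of 100 probes changed 4-fold were called and 1 of 100 changed 1.2-fold. The changed probes were few and bright, and the noise was set lower than the spread between the real arrays. The simulation therefore says nothing of bounds, of dim probes or of an array that differs at many genes. Python 3.11.15 with numpy 2.4.6, pandas 2.3.3 and matplotlib 3.10.9 was used, and limma 3.58.1 in R 4.3.3 for normexp.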

Additional observations from a re-analysis of the deposited data

How the results depend on the processing

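Of 11 alternative settings and 1 chosen after seeing the data (the probe of a gene picked over the 3 concordant arrays), 9 give values of single member probes. In both comparisons with the non-specific 48 h array, 0 of these values changed sign. For stapled-peptide over time 10 values of at most 0.33 in size did, 9 of them without normalization, and at 24 h 3 values of at most 0.03 did. Of 494 such values 460 moved by less than 0.43, the SD of the 24 h differences over probes, and 34 moved by more. Settings that only leave probes out keep the other values as they are, so that many of the 460 could not move. With normexp 13 probe values moved by more and 3 did not, in each of the comparisons with the non-specific 48 h array. With normexp, members higher numbered 1 and pathway genes higher 1 both for the peptides at 48 h and for non-specific stapled-peptide over time, the members' medians were −0.71 and −0.75, and the pathway count at 24 h was 0. When a probe had to be well above background on each array of a pair, members higher numbered 1, members lower 3 and pathway genes higher 1 in each of these 48 h comparisons. At 4-fold, members higher numbered 1 and pathway genes higher 0 in each, and pathway genes lower 8 for the peptides at 48 h. Without normalization 4 pathway genes were higher at 48 h. The median difference of all probes at 48 h, −0.02, was −0.14 with scaling to the 75th percentile and 0.20 without normalization, and for non-specific stapled-peptide over time it was −0.23 with that scaling. No probe was saturated, so leaving out saturated probes tested nothing, and quantile normalization over 3 arrays gave values only for comparisons without the non-specific 48 h array. No paired analysis was possible because each group has 1 array and the labels carry no replicate numbers, and no replicate could be left out. Values of dim probes are limited by signal over background: without the bound the 48 h difference was 5.67 for ERBB4, 3.75 for HBEGF and −3.41 for the NRG1 probe A_23_P315815.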
